A study of Mus musculus with 16 samples.

Results

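The genes described here are 10 genes of antigen presentation by MHC class II and of costimulation, followed across 16 single-colour arrays of adherent mouse peritoneal cells. Members were taken by name: every probe whose gene name in the scanner files was one of the 10 symbols or a synonym, which gave 16 probes for 10 of 10 genes, set against 17466 features tested on the whole array. The 6 class II genes are H2-Aa (gene 14960), H2-Ab1 (14961), H2-Eb1 (14969), H2-DMa (14998), Cd74 (16149) and Ciita (12265, named C2ta in the files). The 4 genes of costimulation and coinhibition are Cd40 (21939), Cd80 (12519), Cd86 (12524) and Cd274 (60533). All 16 probes were well above background on all 16 arrays and none was saturated, so every member passed the filter on dim probes and no value is a bound.

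The arrays fell into 4 groups of 4: cells labelled fld given LPS, cells labelled fld left untreated, control cells given LPS, and control cells left untreated. All mice were male and of the strain BALB/cByJ-Lpin1fld/J. The fld mice carry the mutation fatty liver dystrophy in Lpin1, which encodes lipin-1, a phosphatidate phosphatase, and the controls were heterozygotes, so the controls too carry a mutated copy. Cells washed from the peritoneum were left to adhere for 2 h, rinsed to take away unattached cells, and then either left untreated or given LPS, the endotoxin that TLR4 senses, at 100 ng/ml over 5 h in RPMI medium without serum. The series addresses how lipin-1 shapes the macrophage response to a TLR4 ligand. Its design counts 4 mice of each genotype, but does not tie an array to a mouse or a shared number to a shared mouse. The p-values therefore measure the spread between arrays, which may be technical.

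MHC class II molecules carry peptides of engulfed proteins to CD4+ T cells. In the textbook account the alpha and beta chains assemble on the invariant chain, proteases of the endosome cut that chain down, and H2-DM exchanges its last fragment for peptide. Transcription of the class II chains, the invariant chain and H2-DM runs through CIITA, a coactivator without DNA binding of its own that is held at the promoter by factors bound to the X and Y boxes, and interferon gamma is the known inducer of Ciita in macrophages. The T cell also reads CD80 and CD86 through CD28, CD274 (PD-L1) through the inhibitory receptor PD-1, and in turn engages CD40 on the presenting cell.

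Promoter sequence is shown for 2 class II genes whose levels moved together from array to array, and for Cd80, the member with the largest difference. RefSeq windows of build GRCm38.p6, which run 250 bases before a gene's start to 50 after it, were matched for 5 of the 10 members, and the part before the start is printed 5′ to 3′ on the gene's strand. Capitals mark, in the first 2 sequences, the Y box core GATTGG, a part of the X1 box (AG, any 2 bases, AC, any base, then GATG) and the palindrome TGACGTCA of the cyclic AMP response element, whose letters the X2 box resembles, each on either strand.
H2-Aa, chr17:34287824-34288073, minus strand: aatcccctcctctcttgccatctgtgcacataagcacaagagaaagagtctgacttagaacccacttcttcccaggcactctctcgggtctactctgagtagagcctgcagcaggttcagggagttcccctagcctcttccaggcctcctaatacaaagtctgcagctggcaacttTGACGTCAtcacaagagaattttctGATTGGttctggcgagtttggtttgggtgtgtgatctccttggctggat
H2-Eb1, chr17:34305617-34305866, plus strand: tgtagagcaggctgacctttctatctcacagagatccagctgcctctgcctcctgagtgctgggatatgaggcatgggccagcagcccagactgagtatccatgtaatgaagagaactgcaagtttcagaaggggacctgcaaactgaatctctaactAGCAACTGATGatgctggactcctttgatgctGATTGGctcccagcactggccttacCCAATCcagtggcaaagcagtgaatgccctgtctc
In the Cd80 sequence capitals mark the frame of the kappa B site, the site of NF-kB, searched as GGG and CC with any 5 bases between them on either strand.
Cd80, chr16:38458683-38458932, plus strand: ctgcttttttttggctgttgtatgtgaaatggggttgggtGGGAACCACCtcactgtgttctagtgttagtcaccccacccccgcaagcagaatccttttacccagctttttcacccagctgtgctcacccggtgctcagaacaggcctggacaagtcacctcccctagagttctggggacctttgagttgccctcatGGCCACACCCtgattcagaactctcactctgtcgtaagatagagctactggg

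The H2-Aa sequence held 1 Y box core, at -49 to -44 from the start, and 1 cyclic AMP response element, at -74 to -67. The H2-Eb1 sequence held the X1 part as AGCAACTGATG at -92 to -82, a Y box core at -60 to -55 and another, on the other strand, at -35 to -30. Among all 32851 promoter windows of the same length, 16.1% held a Y box core, 1.79% the cyclic AMP response element and 0.968% the X1 part. The kappa B frame was in 50.8% of windows, H2-Aa and H2-Eb1 included, and Cd80 held it at -210 to -201 and, on the other strand, at -52 to -43. A match describes letters, and no binding was measured.

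Levels below are log2 of the processed intensity minus the array's 75th percentile, so that 0 is the 75th percentile of that array, and levels of different probes are not set against each other. Differences come from limma with Benjamini-Hochberg adjustment over all 17466 features, called at an adjusted p under 0.05, and are LPS minus untreated or fld minus control. From 58.7% to 65.4% of the spots on an array stood well above background, and the arrays' 75th percentile ranged from 189 to 627. Each group had a slide and a scan to itself, so group and slide cannot be told apart, and the number of arrays limits the precision. Of the 4 Lpin1 probes (chromosome 12), the 3 that are not the brightest, which were above background on 10 or 11 arrays, read -7.35 to -4.58 on the arrays labelled fld of replicates 1 to 3, -3.54 to -1.36 on both arrays labelled fld of replicate 4, and -4.43 to -1.99 on the 8 control arrays. The brightest probe read -2.15 to -1.40 on arrays labelled fld of replicates 1 to 3, overlapping the control arrays at -1.81 to -1.30, and -0.33 and -0.63 on both arrays of replicate 4. Replicate 4 therefore goes against its label in this check, "labelled fld" is written for that reason, and member counts are also given without both of these arrays. Adgre1, a macrophage marker, was measured on 15 arrays at 4.07 to 7.18, and the B cell genes Cd79b and Ms4a1 were also read on every array, at 4.76 to 6.26 and 4.70 to 6.19. In bulk RNA such as this, fewer cells of a type and less RNA per cell cannot be told apart.

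With LPS, Cd80 and Cd274 were called higher in both genotypes and Cd40 in control cells, while Cd86 and the 6 class II genes were not called. Cd80 was 6.78-fold higher with LPS in cells labelled fld and 8.29-fold higher in control cells, and Cd274 was 2.07-fold higher in cells labelled fld and 2.80-fold higher in control cells. Cd40 was 2.16-fold higher in control cells. In all, 2 of the 10 members were called in cells labelled fld and 3 of 10 in control cells, all of them higher. For comparison, 39.6% of all features were called in cells labelled fld (21.6% called higher) and 29.4% in control cells (14.5% called higher), so the members' count was below the share called either way in cells labelled fld and near it in control cells. Of calls in the higher direction alone, the members' count was near the background in cells labelled fld and above it in control cells. The members' median difference was 0.04 in cells labelled fld and 0.26 in control cells, beside 0.06 and 0.03 over all features. Without both arrays of replicate 4 labelled fld the counts were 2 and 4. The LPS and untreated arrays did not overlap for 2 members in cells labelled fld and 4 in control cells, where 37.7% and 33.2% of all features did not overlap.

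**Figure D1:**
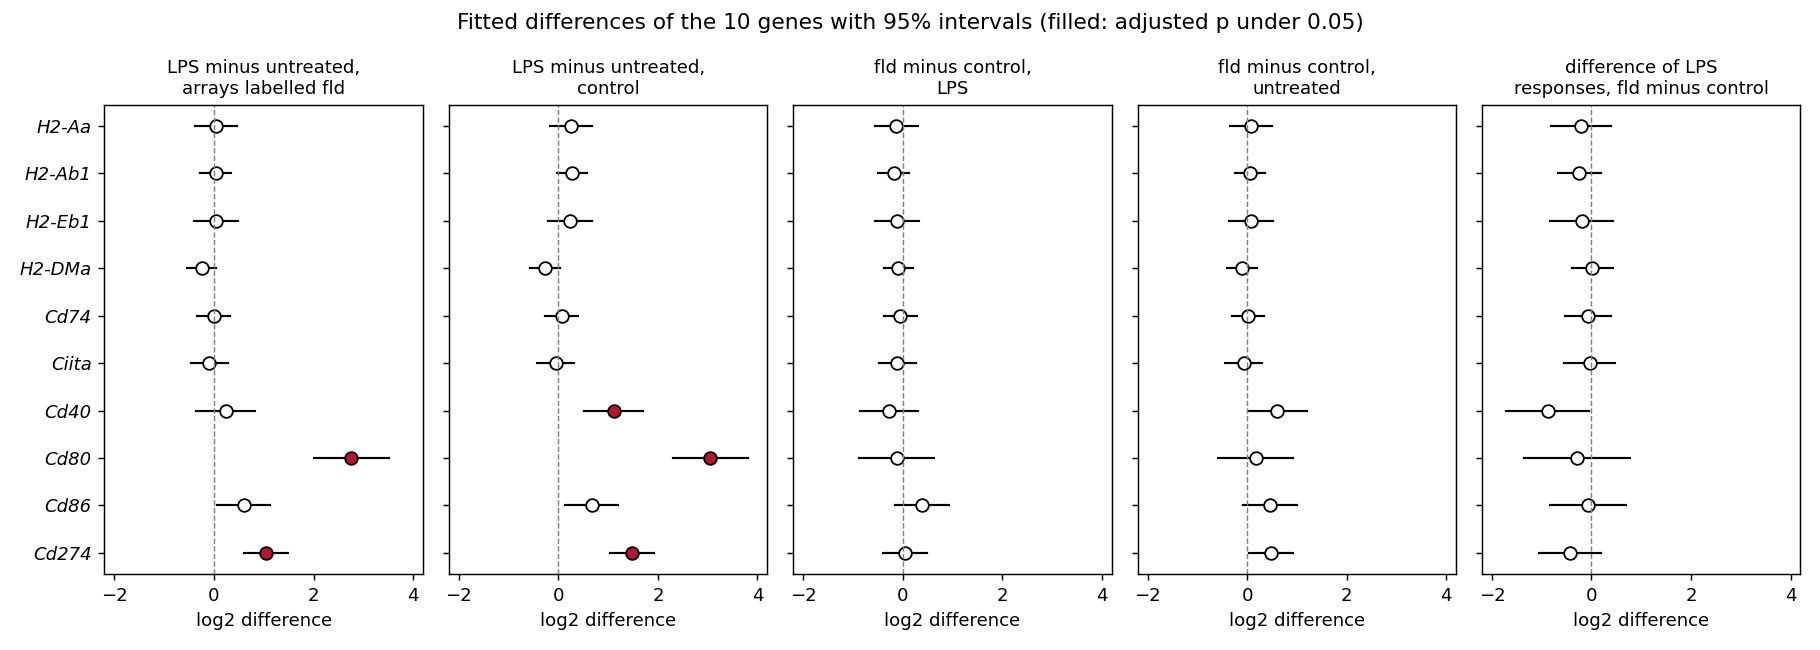
Fitted log2 differences of the 10 genes (points) with 95% intervals (lines) in the 5 comparisons, filled where the adjusted p was under 0.05. Cd80 and Cd274 are filled in both LPS panels and Cd40 in the control panel, at 1.11, while no point is filled in the 3 panels that set fld against control.

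Cd80 (B7-1), a ligand of CD28 and CTLA-4 and on chromosome 16, gave the largest member differences. Its levels were 2.11, 2.84, 1.46 and 3.26 on LPS arrays labelled fld, against -0.56, -0.36, 0.16 and -0.61 on untreated arrays labelled fld. In control cells the levels were 2.75, 2.83, 1.96 and 2.61 with LPS, against -0.82, -0.10, -1.09 and -0.05 untreated. In both genotypes every LPS array lay above every untreated one, and LPS arrays labelled fld were spread over more than the control ones, with replicate 3 the lowest and replicate 4 the highest. The limma difference was 2.76 (SE 0.35, adjusted p = 3.74e-05) in cells labelled fld and 3.05 (SE 0.35, adjusted p = 1.69e-05) in control cells. The second Cd80 probe, elsewhere in the transcript, gave 2.09 and 2.54 (SE 0.24 each), and both were called.

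Cd274 (PD-L1), the ligand of the inhibitory receptor PD-1 and on chromosome 19, was the other member called in both genotypes. Its levels were 6.13, 6.0, 6.21 and 5.54 on LPS arrays labelled fld, against 5.03, 4.71, 5.27 and 4.66 on untreated arrays labelled fld. Control cells read 5.98, 5.68, 5.97 and 6.09 with LPS, against 4.89, 4.66, 3.94 and 4.27 untreated. Neither genotype's groups overlapped, and on the LPS arrays labelled fld it was replicate 4 that was lowest, the reverse of its place for Cd80. The difference was 1.05 (SE 0.21, adjusted p = 0.00122 in limma) in cells labelled fld and 1.49 (SE 0.21, adjusted p = 8.32e-05) in control cells.

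Cd40, the receptor through which T cells license the presenting cell and on chromosome 2, was called in control cells alone, and the difference between the genotypes' responses was itself not called. On LPS arrays labelled fld it read 2.72, 3.13, 2.50 and 3.24, against 3.08, 2.20, 2.72 and 2.67 on untreated arrays labelled fld. In control cells it read 3.58, 2.96, 2.97 and 3.18 with LPS, against 2.88, 2.16, 1.47 and 1.75 untreated. The groups overlapped in cells labelled fld and did not overlap in control cells. The limma difference was 0.23 (SE 0.28, adjusted p = 0.525) in cells labelled fld and 1.11 (SE 0.28, adjusted p = 0.00683) in control cells. The response of cells labelled fld minus that of control cells was -0.88 (SE 0.39, 95% interval -1.71 to -0.05, adjusted p = 0.502), with an unadjusted p = 0.0399. Between genotypes, fld minus control was -0.27 with LPS (SE 0.28, adjusted p = 0.602) and 0.61 untreated (SE 0.28, adjusted p = 0.256).

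Cd86 (B7-2), the second ligand of CD28 and on chromosome 16, did not pass the test in either genotype, and its 2 probes disagreed. The brighter probe read 3.61, 4.06, 3.73 and 4.60 on LPS arrays labelled fld, against 3.34, 3.15, 3.84 and 3.30 on untreated arrays labelled fld. In control cells it read 3.58, 3.63, 3.64 and 3.64 with LPS, against 3.38, 3.46, 2.34 and 2.64 untreated. The groups overlapped in cells labelled fld but not in control cells, where the LPS arrays lay within 0.07 of each other and the untreated ones spread over more than 1 unit. The difference was 0.59 in cells labelled fld (SE 0.25, adjusted p = 0.0746 in limma) and 0.67 in control cells (SE 0.25, adjusted p = 0.0612). The dimmer probe gave -0.37 (SE 0.17, adjusted p = 0.0957) and 0.16 (SE 0.18, adjusted p = 0.554, with 1 flagged control array left out). Its untreated arrays labelled fld, at 2.24 to 2.49, all lay above the untreated control ones, at 1.48 to 2.17, with a difference of 0.59 (SE 0.17) that was not called (adjusted p = 0.0733).

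**Figure D2:**
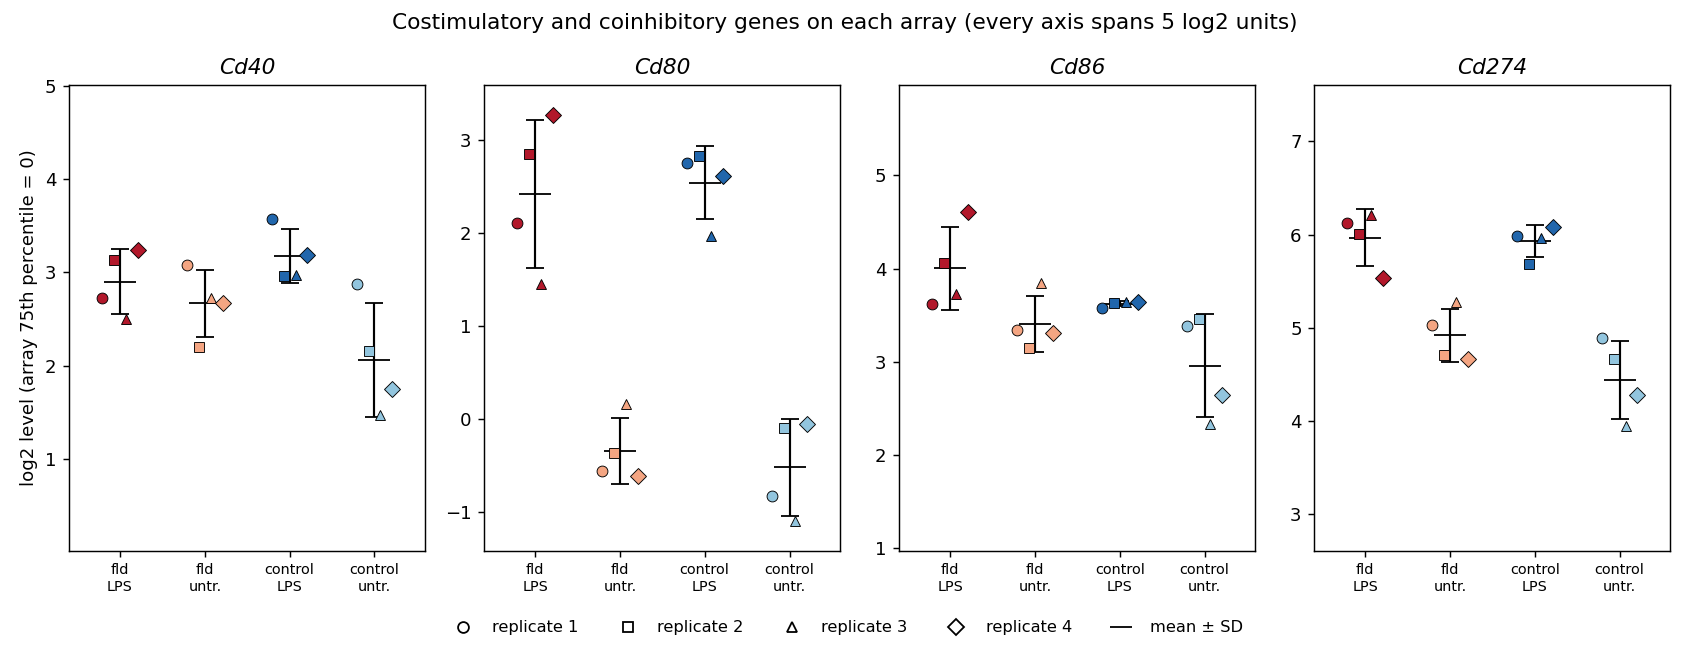
Level of Cd40, Cd80, Cd86 and Cd274 on each of the 16 arrays (points, shaped by replicate number) with the mean and SD of each group of 4; the y axis is log2 intensity with the array's 75th percentile at 0. For Cd80 and Cd274 the LPS arrays lie above the untreated ones in both genotypes, while for Cd40 in cells labelled fld, at 2.50 to 3.24 with LPS and 2.20 to 3.08 untreated, they overlap.

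None of the 6 class II members was called in any of the 5 comparisons, and in each of the 4 comparisons between groups the groups overlapped for all 6. With LPS the limma differences ran from -0.25 to 0.04 in cells labelled fld (adjusted p = 0.167 to 0.989) and from -0.27 to 0.27 in control cells (adjusted p = 0.17 to 0.855). The 95% intervals of the 6 genes together reached from -0.54 to 0.48 in cells labelled fld and from -0.56 to 0.68 in control cells, and differences of up to these sizes lie within the error. Their median difference was 0.01 in cells labelled fld and 0.15 in control cells, beside 0.06 and 0.03 over all features. All 10 probes of the 6 genes were tested singly too and none was called, with differences from -0.25 to 0.29 in cells labelled fld and from -0.27 to 0.27 in control cells.

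Among the chains of the peptide-binding molecules, all on chromosome 17, H2-Aa, the alpha chain of I-A, read 4.83, 5.25, 4.92 and 5.72 on LPS arrays labelled fld, against 5.15, 4.75, 5.21 and 5.42 on untreated arrays labelled fld. In control cells it read 5.24, 5.26, 5.59 and 5.11 with LPS, against 5.37, 4.86, 5.15 and 4.83 untreated. The 2 treatments overlapped in each genotype, and the LPS arrays labelled fld alone spanned 0.89. The difference was 0.04 (SE 0.20) in cells labelled fld and 0.25 (SE 0.20) in control cells. H2-Ab1, its beta chain, lay between 6.82 and 7.22 on LPS arrays labelled fld, between 6.70 and 7.19 on untreated ones, and in control cells between 7.04 and 7.29 with LPS and between 6.63 and 7.17 untreated. H2-Eb1, the beta chain of I-E, gave 0.04 (SE 0.21) and 0.24 (SE 0.21), with levels from 6.08 to 7.11 on LPS arrays labelled fld and from 6.54 to 6.85 on LPS control arrays. In each of these 3 genes the control difference was the more positive one, but the difference between the responses, -0.24 to -0.20, was not called (adjusted p = 0.76 to 0.878).

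Neither of the members that act in loading the groove was called. H2-DMa, the alpha chain of the peptide editor H2-DM, read 0.74, 0.85, 1.0 and 0.78 on LPS arrays labelled fld, against 1.06, 0.94, 0.89 and 1.47 on untreated ones. Control cells read 0.97, 0.91, 1.02 and 0.82 with LPS, against 1.50, 1.04, 1.26 and 0.98 untreated. The highest LPS array was above the lowest untreated array in both genotypes, so the groups overlapped, and the differences of -0.25 and -0.27 (SE 0.14 each) were not called (adjusted p = 0.167 and 0.171). Cd74 (chromosome 18), the invariant chain, differed by -0.00 and 0.07 (SE 0.15 each), the smallest size of the 6 in cells labelled fld. Its levels spanned 6.05 to 6.65 on LPS arrays labelled fld and 6.16 to 6.48 on untreated arrays labelled fld, against 6.29 to 6.51 on LPS control arrays and 6.0 to 6.66 on untreated control arrays.

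Ciita (chromosome 16), the coactivator of the class II genes, read 1.06, 1.27, 1.61 and 1.13 on LPS arrays labelled fld, against 1.31, 1.38, 0.96 and 1.77 on untreated arrays labelled fld. In control cells it read 1.41, 1.46, 1.24 and 1.37 with LPS, against 1.82, 1.35, 1.31 and 1.22 untreated. The ranges overlapped almost wholly in both genotypes. Its difference was -0.09 (SE 0.17, 95% interval -0.46 to 0.28) in cells labelled fld and -0.05 (SE 0.17, 95% interval -0.42 to 0.32) in control cells.

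**Figure D3:**
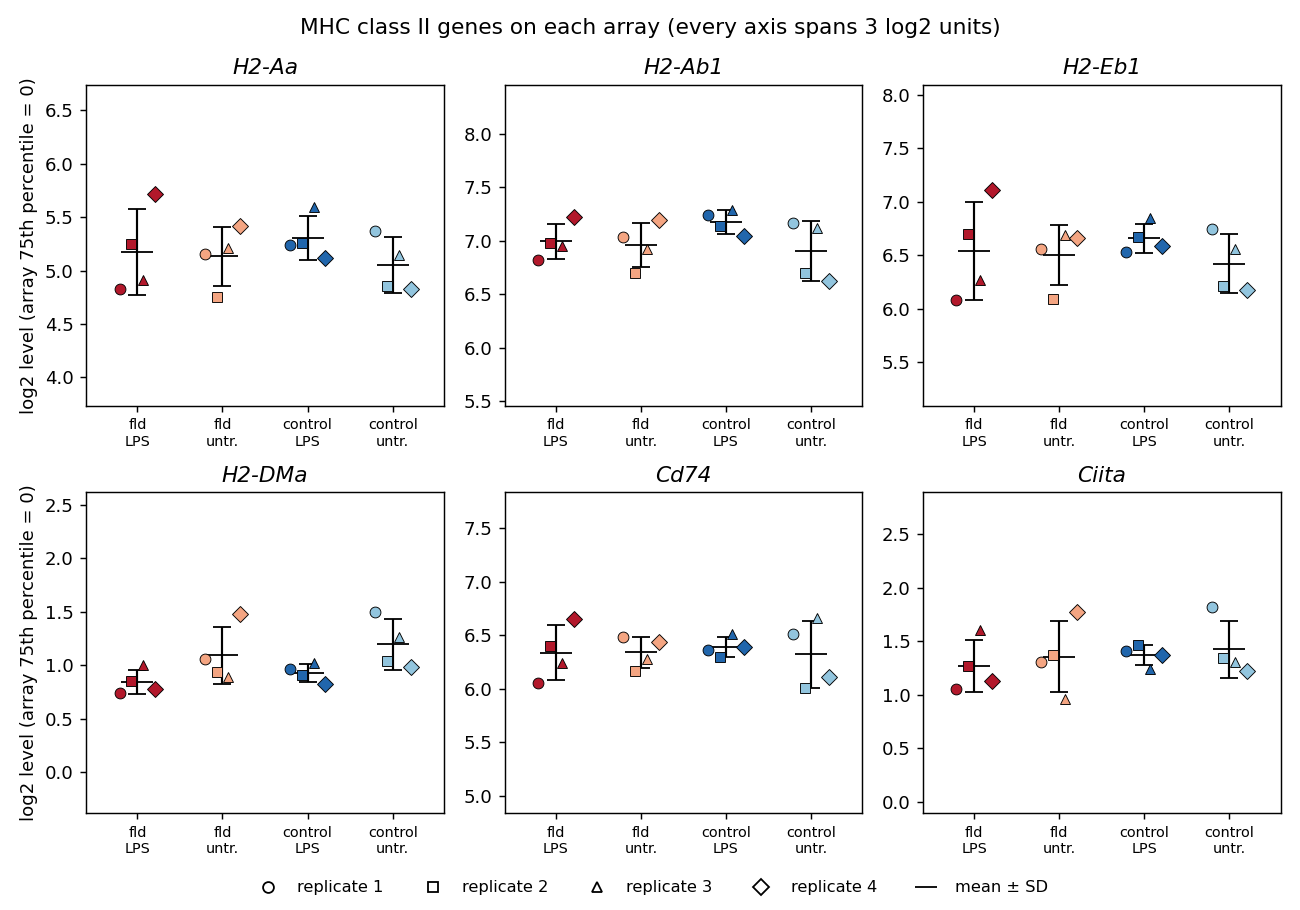
Level of the 6 class II genes on each of the 16 arrays (points, shaped by replicate number) with the mean and SD of each group of 4, every panel spanning 3 log2 units. The groups overlap in every panel, and in H2-Aa and H2-Eb1 the 4 LPS arrays labelled fld are the most spread, with replicate 4 the highest and replicate 1 the lowest.

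Several class II genes kept one order of arrays in part of the groups. On LPS arrays labelled fld, H2-Aa, H2-Ab1, H2-Eb1 and Cd74 all ran in the order of replicates 4, 2, 3 and 1, and Ciita and H2-DMa did not, with replicate 3 highest in both. On untreated control arrays replicates 1 and 3 were above 2 and 4 in all 5 of H2-Aa, H2-Ab1, H2-Eb1, H2-DMa and Cd74. On untreated arrays labelled fld and on LPS control arrays the order was not the same in all 5 genes, although replicate 3 was the highest LPS control array in all 5. The mean of these 5 genes was 4.90, 5.24, 5.08 and 5.50 on LPS arrays labelled fld, 5.26, 4.93, 5.20 and 5.44 on untreated arrays labelled fld, 5.27, 5.25, 5.45 and 5.19 on LPS control arrays, and 5.46, 4.96, 5.35 and 4.95 on untreated control arrays. The spread within a group was therefore larger than the gap between groups.

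B cell markers, which mark a cell type that carries class II of its own, shared part of that mean's order of arrays. All 12 listed B cell markers passed the filter, 9 were measured on all 16 arrays, and none was at background throughout. Their mean level ranged from 1.02 to 1.56 on LPS arrays labelled fld, from 1.30 to 1.86 on untreated arrays labelled fld, from 1.53 to 1.63 on LPS control arrays and from 1.49 to 2.01 on untreated control arrays. As a linear sum in units of the 75th percentile, these ranges were 88.4 to 124, 127 to 173, 118 to 132 and 122 to 210. The array with the highest class II mean had the highest B cell mean in 4 of 4 groups, and the whole order of the 4 arrays was the same in both groups labelled fld. The lowest array was shared in 2 groups, and neither control group kept the whole order. The dendritic cell marker mean shared the highest array in 3 groups and the whole order in none, and the mean of the large peritoneal macrophage markers shared the highest array in no group. On LPS arrays labelled fld the shared highest array, replicate 4, was also highest for the dendritic, T cell and mast cell marker means. That array had the lowest 75th percentile of all arrays, at 189. The part of B cells in the class II values was not tested.

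**Figure D4:**
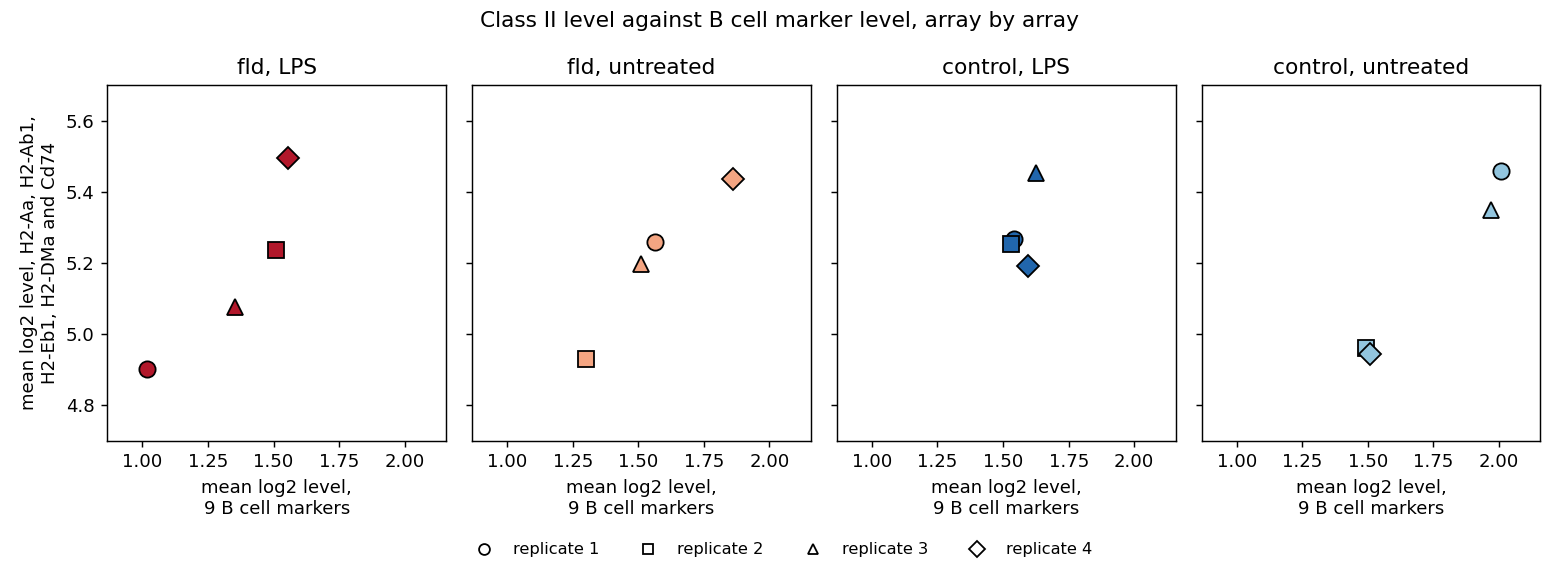
Mean level of H2-Aa, H2-Ab1, H2-Eb1, H2-DMa and Cd74 (y, log2) against the mean level of 9 B cell markers (x, log2), 1 point per array, in 4 panels by group. In the 2 panels of arrays labelled fld the order of the 4 arrays is the same on both axes, and in every panel the array highest on y is highest on x.

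Of 12 B cell markers tested, 3 fell with LPS in cells labelled fld and 2 in control cells, and none rose. Over all features 18% were called lower in cells labelled fld and 14.9% in control cells, so these counts are near the background. Cd79b, a chain of the B cell receptor, differed by -0.60 in cells labelled fld and -0.60 in control cells (SE 0.21 each, adjusted p = 0.0319 and 0.0414 in limma). Cr2, a complement receptor, differed by -2.02 (SE 0.28) and -0.95 (SE 0.31). It was above background on only 2 of the 4 LPS arrays labelled fld, so the size of the first difference is uncertain. Fcrla differed by -0.66 in cells labelled fld (SE 0.21, adjusted p = 0.0205). Without both arrays of replicate 4 labelled fld, 1 marker fell in cells labelled fld and 3 in control cells, where 1 rose. Of the 8 dendritic cell markers tested, 4 rose and 1 fell in cells labelled fld, and 2 rose in control cells. Over all features 21.6% were called higher in cells labelled fld and 14.5% in control cells. Clec9a, above background on no array, and Siglech, above background on 2, did not pass the filter. Batf3 rose by 1.04 and 1.05 (SE 0.20 each), Ccr7 by 0.62 and 0.43 (SE 0.15 each), and Cd209a by 1.24 in cells labelled fld (SE 0.28). Kmo fell by 0.67 in cells labelled fld (SE 0.19). Cd209a was not called in control cells, where it averaged -2.56 with LPS and -2.26 untreated. Of 9 large peritoneal macrophage markers, 5 fell in cells labelled fld, led by Alox15 at -3.61 (SE 0.59) and Timd4 at -2.34 (SE 0.51), and in control cells 3 fell, led by Alox15 at -2.95 (SE 0.59), and Icam2 rose by 0.99 (SE 0.21). Their summed level in 6 genes was 23.3 to 67.7 on LPS arrays labelled fld and 49.4 to 75.5 on untreated arrays labelled fld, against 51.8 to 70.3 on LPS control arrays and 73.4 to 86.3 on untreated control arrays. The mean log2 level of these genes was 0.38 on LPS replicate 4 labelled fld, and 1.47 to 2.25 on the other LPS arrays labelled fld. These shifts stand beside the LPS differences of the members, and their part in them was not tested.

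Of the other genes of the class II pathway 20 were tested, among them proteases, transcription factors and chaperone chains. In cells labelled fld 1 rose and 4 fell, and in control cells 2 rose and 3 fell. With 5 of 20 called in each genotype the list was below the 39.6% of all features called in cells labelled fld and near the 29.4% in control cells, shares that also stand beside the counts of the lists that follow. Legumain (Lgmn), an endosomal protease that cuts antigens and the invariant chain, fell by 1.41 (SE 0.32) in cells labelled fld and fell by 1.72 (SE 0.30) in control cells. Cathepsin S (Ctss), which removes the last part of the invariant chain, fell by 1.12 and fell by 0.88 (SE 0.19 each). Cathepsin L (Ctsl) fell by 0.61 (SE 0.20) in control cells. H2-Oa, a chain of the inhibitor of H2-DM, fell by 0.68 (SE 0.21) and Rfx5, a subunit of the factor on the X box, fell by 0.41 (SE 0.10), both in cells labelled fld. Nfyb, a subunit of the Y box factor NF-Y, rose by 0.59 and 0.69 (SE 0.12 each), and Nfyc, another, rose by 0.32 (SE 0.10) in control cells. The list's median was -0.09 and -0.04, beside 0.06 and 0.03 over all features.

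The interferon gamma route to Ciita, 10 genes tested, moved both ways. In cells labelled fld 2 rose and 4 fell, and in control cells 3 rose and 3 fell. Jak2, a kinase of the interferon gamma receptor, rose by 1.56 (SE 0.17) in cells labelled fld and 2.11 (SE 0.16) in control cells, and Jak1 by 0.41 (SE 0.14) and 0.48 (SE 0.13). Socs1, an inhibitor of that receptor's kinases, rose by 1.29 (SE 0.26, adjusted p = 0.00176 in limma) in control cells. Irf1, a factor of the interferon-inducible Ciita promoter, fell by 1.53 and fell by 0.84 (SE 0.18 each), Irf2 fell by 0.91 and fell by 0.92 (SE 0.16 each), and Usf1, another factor of that promoter, fell by 0.70 and fell by 0.61 (SE 0.11 each).

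Of 10 genes of CD40 signalling, 6 rose and none fell in cells labelled fld, and 7 rose and none fell in control cells. Traf1, an adaptor of TNF receptor family members, rose by 1.68 and 2.39 (SE 0.22 each), Nfkb2, the precursor of p52, by 0.91 and 1.30 (SE 0.13 each), and Traf3, an adaptor bound by CD40, by 0.63 (SE 0.11) and 0.71 (SE 0.10). The list's median was 0.33 and 0.54. The count in cells labelled fld rests on the arrays and the scaling used: it was 3 without both arrays of replicate 4 labelled fld, and with each array centred on its median 2 rose and 1 fell. Under normexp background correction none was called in cells labelled fld and 1 rose in control cells.

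Other costimulatory and coinhibitory molecules, 13 tested, moved both ways with LPS. Of these, 2 rose and 6 fell in cells labelled fld, and 2 rose and 3 fell in control cells. Tnfsf9, the ligand of 4-1BB, rose by 1.42 and 2.36 (SE 0.33 each), and Cd83, a surface marker of activated presenting cells, by 1.03 and 0.94 (SE 0.23 each). Cd48, a ligand of CD2 family receptors, fell by 1.31 and fell by 1.29 (SE 0.21 each). Icosl, the ligand of ICOS, fell by 1.43 (SE 0.26) and Tnfrsf14 (HVEM), a ligand of BTLA, fell by 0.87 (SE 0.14) in cells labelled fld. The myeloid inhibitory receptor Cd200r1 fell by 0.79 in cells labelled fld and fell by 1.11 in control cells (SE 0.19 each), and Vsir (VISTA) fell by 0.59 and fell by 1.11 (SE 0.22 each). Tnfsf18, Cd70, Cd276 and Vtcn1 did not pass the filter on dim probes.

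**Figure D5:**
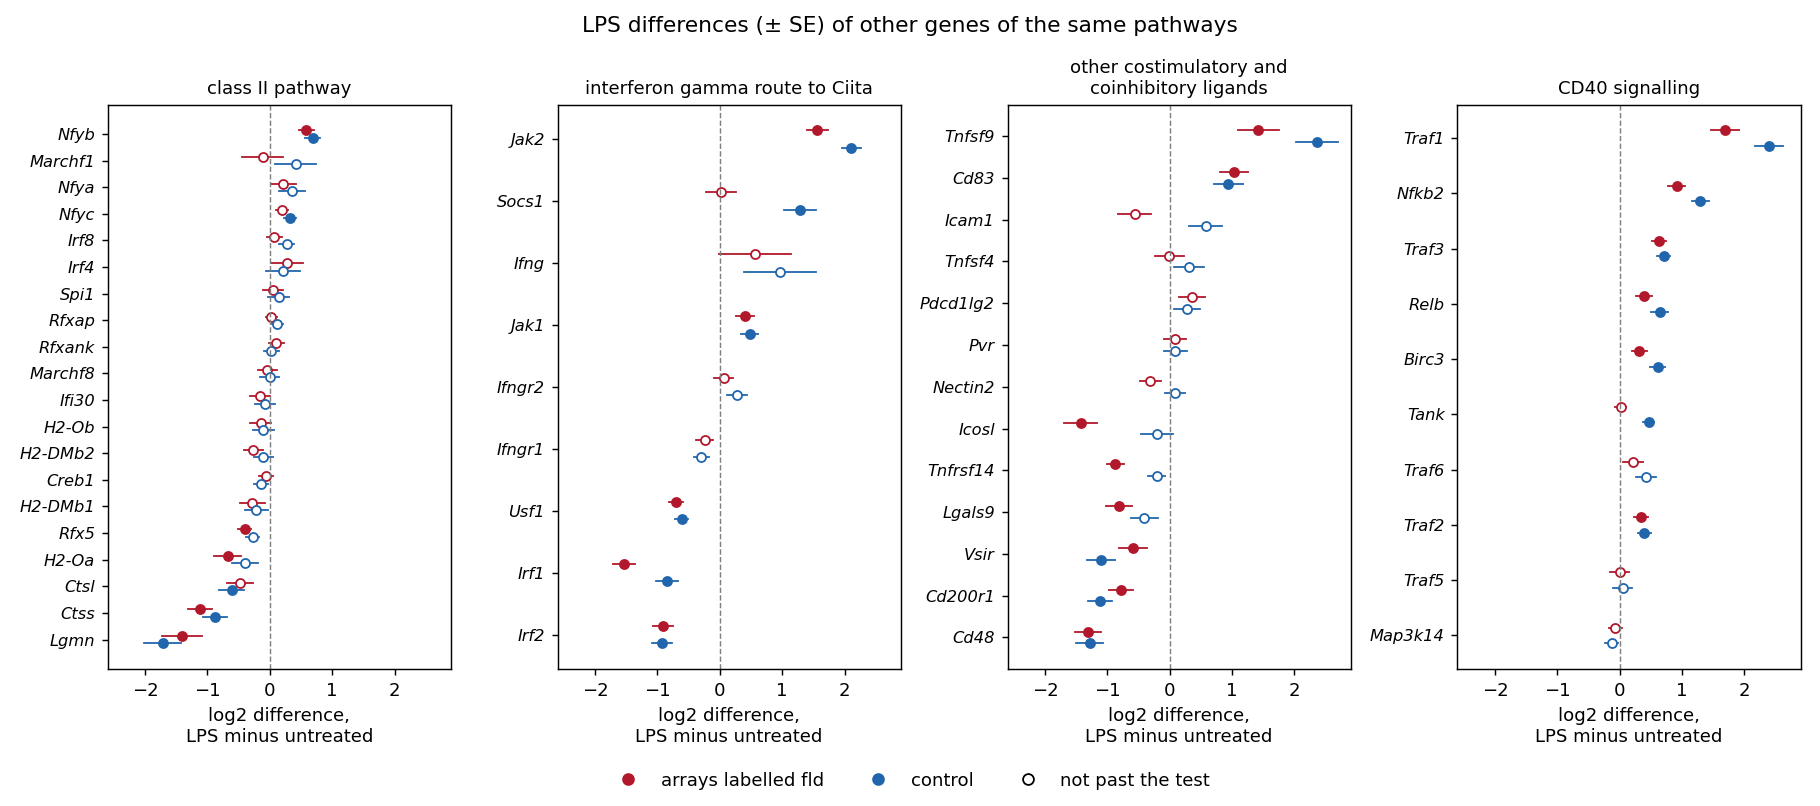
Log2 differences of LPS minus untreated (points, with SE as lines) for other genes of 4 lists (9 of the 10 tested in the interferon gamma list), in cells labelled fld (red) and control cells (blue), filled where the adjusted p was under 0.05. In the list of CD40 signalling 6 and 7 of 10 points are filled to the right of 0, led by Traf1 at 1.68 and 2.39, and in the class II list Lgmn lies farthest left, at -1.41 and -1.72.

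Between the genotypes no member was called. On the probe that stands for each gene the groups overlapped for all 10 members in both comparisons, beside 15.7% of all features untreated and 20.3% with LPS whose groups did not overlap; the dimmer Cd86 probe, whose untreated groups did not overlap, is given above. Untreated, fld minus control ran from -0.11 for H2-DMa to 0.61 for Cd40, with a median of 0.08 beside 0.06 over all features, and 5.08% of all features were called (4.87% higher, 0.212% lower). Cd274 read 0.48 (SE 0.21, 95% interval 0.04 to 0.92) with an adjusted p = 0.228 in limma, the lowest of the 10, and all 4 costimulatory members were on the positive side. With LPS, fld minus control ran from -0.27 for Cd40 to 0.38 for Cd86, with a median of -0.11 beside 0.03, and 17% of all features were called (16.1% higher, 0.916% lower). All 6 class II differences were then negative, between -0.18 and -0.05, and none was called (adjusted p = 0.476 to 0.884). This comparison depends on how arrays are scaled. With each array centred on its median, the median of all features moved to -0.37 and 6451 of all 17466 features were called lower. Among them were 7 of the 10 members (the 6 class II genes and Cd40), which differed by -0.30 to -0.08 relative to that median. The share of calls that were higher was 94.6% here, 74.4% after quantile normalization and 23.6% after median centring; untreated it was 95.8%, 87.3% and 85.2%, and for LPS in cells labelled fld 54.6%, 47.5% and 29.6%.

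The difference of the LPS responses was called for no member and for 0% of all features in limma, of which 1629 had an unadjusted p under 0.05. One member, Cd40, had an unadjusted p below that level. The other members' differences of responses lay between -0.44 for Cd274 and 0.02 for H2-DMa, with a median over the 10 of -0.20. For Cd80 it was -0.29 with a 95% interval from -1.35 to 0.77, so a sizeable difference in either direction is within its error.

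Among the other genes of the lists, few were called between the genotypes. Untreated, Traf1 was 0.82 (SE 0.22, adjusted p = 0.0473) and Tank, a TRAF-binding protein, 0.37 (SE 0.09, adjusted p = 0.0297) higher in cells labelled fld than in control cells, and Socs1 0.94 (SE 0.24, adjusted p = 0.0349) higher, by limma. These calls include replicate 4 labelled fld, and under normexp no feature was called in this comparison. Traf1 and Tank were the 2 called of 10 CD40 signalling genes and Socs1 the 1 called of 10 genes of the interferon gamma route, and none of these lists had a called gene with LPS. Neither the 20 other class II genes nor the 13 other costimulatory molecules held a called gene in either comparison. Markers of other cells differed beside them. Over all features, 16.1% were called higher and 0.916% lower between the genotypes with LPS, and 4.87% and 0.212% untreated. Of 12 B cell markers, 2 were lower with LPS, Cr2 at -1.31 (SE 0.31) and Fcer2a at -1.05 (SE 0.29), 1 was lower untreated, and none was higher. The size for Cr2 is uncertain, as it was above background on only 2 of the 4 LPS arrays labelled fld. Of 7 T cell markers, Cd3e, Cd4 and Cd8a were higher with LPS, by 1.41, 0.96 and 0.98, and Cd3e untreated, by 0.85, while none was lower and Cd2, Lck and Cd3g, between -0.30 and -0.02 in both comparisons, were not called. Cd8a was above background on 4 LPS arrays labelled fld and on 2 LPS control arrays. It passed the filter only through the LPS group labelled fld, where it was higher, so its call is no independent support. Of 8 dendritic cell markers, 3 were higher with LPS (Flt3 by 0.98, Itgae by 0.83 and Zbtb46 by 0.56). Xcr1, at 0.78, and Ccr7, Batf3, Cd209a and Kmo, from 0.08 to -0.36, were not called. Untreated, Zbtb46 was higher by 0.52 (SE 0.13) and Cd209a lower, at -1.58 (SE 0.28). The T cell and dendritic cell markers called higher with LPS averaged only -5.03 to -1.90 on LPS control arrays. Without the filter on dim probes, the median of all features in that comparison was 0.28, beside 0.03 with it. The part of dimness was not tested, nor that of the other cell types in the members' values.

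Features whose pattern over the 16 arrays was nearest to a member were found by the root-mean-square difference of centred log2 levels. Nearest to the mean of the 5 class II genes were Rbm38 (0.07), Mfng (0.11), Ndufa12 (0.12) and Mre11a (0.12), against a median of 0.39 over all features and an SD of 0.20 of the mean itself. For Cd40 they were Slfn2 (0.28), Tlr2 (0.29), Ifi205 (0.30) and Jam2 (0.30), against a median of 0.63. For Cd274 they were Rell1 (0.20), Slc15a3 (0.21), 4930486L24Rik (0.23) and Naip2 (0.24), against a median of 0.76. Tlr2, a receptor of bacterial lipoproteins, averaged 6.73 on LPS arrays labelled fld, 6.43 on untreated arrays labelled fld, 6.99 on LPS control arrays and 5.88 on untreated control arrays. The untreated control group was lowest, as for Cd40, a likeness that the choice of Tlr2 by nearness to Cd40 itself favours.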

How the data were processed

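Labelled RNA of 16 samples was measured on single-colour Agilent arrays (design 014868). The deposited scanner files hold the intensity of each spot, read with Agilent Feature Extraction 9.5.1.1 per the file headers; the processed intensity used here had been background-subtracted by the authors' scanner software. The deposited value table of the series holds a linear signal, which equalled the processed intensity divided by the array's median, within 1%, for 100% of rows; its medians were 1.

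Here levels are log2 of that intensity, less the 75th percentile of the non-control spots of the same array. Flagged spots (1.34% of values) were set to missing and spots of a probe averaged. Probes had to be well above background on every array of 1 or more groups (25534 of 41174 were), and a gene's brightest kept probe stood for it (17466 features). Means over marker lists use only genes measured on all 16 arrays. Names came from the RefSeq table of GRCm38.p6 by accession (22951 probes), symbol (6659) or synonym (3109); no source used here names the build of the probe coordinates. Comparisons used limma 3.58.1 under R 4.3.3 (lmFit with 1 mean per group over all 16 arrays, eBayes, two-sided p, Benjamini-Hochberg adjustment over all features, threshold 0.05). The fit was tested on simulated data. No replicate block was used in it: deviations of same-numbered arrays did not all correlate above 0.1.

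Members and lists were chosen with earlier results of these data known. By a rule, the text names all members with every probe, Lpin1, up to 3 called genes per direction, list and comparison, and the 4 features nearest in pattern to the class II mean, Cd40 and Cd274. Adgre1, Ms4a1, Cd2, Lck, Cd3g, Xcr1, list genes that failed the filter and second values of genes named in one genotype or comparison were named after their values were seen. The list counts without both arrays of replicate 4, and counts and medians under other scalings or filters, were also added after seeing the data. Alternatives were 2 forms of normexp (offset 50), quantile normalization, median centring, the value table, 2 other filters, a mean of probes, flagged spots kept, other sets of arrays and a replicate block. Figures were drawn with matplotlib 3.10.9. Some results for single list genes are not reported here.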

Additional observations from a re-analysis of the deposited data

How the results depend on the processing

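Every member's direction where called, and the counts of called members, held in 28 other settings, with these exceptions. Under normexp the members called with LPS came to 1 in cells labelled fld and 1 in control cells, Cd80 in both; features called came to 1348 and 1097, in place of 6920 and 5142, and with 21 spots of extreme local background reset the counts were again 2 and 3. With LPS, fld against control gave 7 members called, all lower, under median centring and 7 from the value table, which is centred the same way. Of all 17466 features, 6451 were called lower in each of these 2 settings. H2-DMa was also called lower there with LPS in cells labelled fld, at -0.49, beside 4665 of all features. The replicate block gave 2 members called with LPS in cells labelled fld and 3 in control cells, and changed no call of a member. Leaving out 1 array gave 2 to 3 called members in cells labelled fld and 3 to 4 in control cells; the added one was Cd86. It was called in control cells without untreated control replicate 1 (0.81), without untreated control replicate 2 (0.84) or without LPS replicate 4 labelled fld (0.67), and in cells labelled fld without untreated control replicate 3 (0.59), untreated replicate 3 labelled fld (0.74) or LPS replicate 1 labelled fld (0.72). Features called between the untreated genotypes, 887 here, came to 0 under normexp and 37 with backgrounds reset, 535 after quantile normalization, 464 with probes above background on all arrays, 1688 when only the groups compared were fitted, and 354 to 1615 with 1 array left out; those between LPS groups, 2967 here, came to 0 and 2127 under both forms of normexp and 8449 after median centring. The cause of these shifts was not tested. The members' probes were above background on every array and none was saturated.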
